A study of Homo sapiens with 24 samples.

Results

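SOX proteins are transcription factors that bind DNA through a high-mobility-group box, the domain they share with the sex-determining factor SRY. SOX9, with SOX8 and SOX10, forms the SOXE subgroup, and it directs cartilage formation, testis development and the maintenance of progenitor cells in epithelia such as the airway. Close relatives can stand in for one another in some developing tissues, so the question put to the data was whether other SOX genes were higher where SOX9 was lost. The 10 SOX genes described are SOX9, SOX8, SOX10, SOX2, SOX4, SOX5, SOX6, SOX11, SOX12 and SOX13, out of 60563 named genes in the count table. SOX9 was chosen from its measured values, since its transcript was nearly absent from every Δ133p53 line. Its levels are therefore a description with no test. The other 9 were taken as relatives of SOX9 by gene symbol, with no threshold on their values.

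RNA was sequenced from H1299 vector control cells and from 5 clonal cell lines derived from H1299, with 4 libraries from each. H1299 (NCI-H1299) comes from a human non-small cell lung carcinoma and makes no p53 of its own, per the study. Δ133p53α1, Δ133p53α2 and Δ133p53α8 stably overexpress the isoform Δ133p53α from a plasmid. Δ133p53β5 and Δ133p53β10 stably overexpress Δ133p53β. Both isoforms lack the start of p53 and they differ at their C-terminal end. Each line is 1 clone, so the isoform and the clone cannot be told apart within a line. The sources used here do not say whether the libraries of a line came from separate cultures, so p-values measure the spread between these libraries, which may be technical.

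Total counts ran from 21531599 to 25381731 per library. The libraries fell into 2 sets of 12 with opposite trends along gene length, given by the rank correlation of a library's deviation with exon length, which was 0.189 to 0.305 in one set and -0.271 to -0.116 in the other. The positive set held 3 control libraries, 1 library of Δ133p53α1, 3 each of Δ133p53α2 and Δ133p53α8, and 1 each of Δ133p53β5 and Δ133p53β10. The label of 1 library names clone 10 of Δ133p53β while its column is the fourth of Δ133p53β5, and it was counted in Δ133p53β5. Of the lung lineage markers NKX2-1, NAPSA, SFTPB, SFTPC and SCGB1A1, the last had 0 reads in all 24 libraries, and together they reached 0.123 to 0.789 CPM in a library. CPM is the count scaled to the TMM-adjusted library total. The epithelial markers summed to 875.1 to 1651 CPM in a control library and to 1860 to 7734 in a line library. KRT8 and KRT18 carried this sum, while EPCAM, KRT19 and CDH1 had at most 5, 4 and 1 reads in a library. KRT18 by itself held 452.1 to 922.7 CPM in control. That range overlapped Δ133p53α8 (903.1 to 1814) and Δ133p53β10 (802.2 to 2900) and not the other lines. PTPRC and CD3E, which mark blood cells, had 0 reads.

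The promoters of SOX4 and SOX12 are shown because these SOXC genes ended at opposite levels in the lines, the first near 0 and the second as the most abundant SOX transcript, which SOX12 also was in control. Each runs from 250 bases before to 50 bases after the RefSeq gene start (GRCh38.p14, plus strand, 5′ to 3′), at chr6:21593501-21593800 for SOX4 and chr20:325302-325601 for SOX12. Capitals mark matches to a CCAAT box (CCAAT, or ATTGG on the other strand) or a GC box (GGGCGG, or CCGCCC on the other strand).
SOX4: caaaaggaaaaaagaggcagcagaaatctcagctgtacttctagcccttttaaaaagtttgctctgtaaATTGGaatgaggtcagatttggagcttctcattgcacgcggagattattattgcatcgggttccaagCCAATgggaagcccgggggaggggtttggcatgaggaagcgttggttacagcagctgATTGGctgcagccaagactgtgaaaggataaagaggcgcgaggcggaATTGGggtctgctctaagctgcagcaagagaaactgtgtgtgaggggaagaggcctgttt
SOX12: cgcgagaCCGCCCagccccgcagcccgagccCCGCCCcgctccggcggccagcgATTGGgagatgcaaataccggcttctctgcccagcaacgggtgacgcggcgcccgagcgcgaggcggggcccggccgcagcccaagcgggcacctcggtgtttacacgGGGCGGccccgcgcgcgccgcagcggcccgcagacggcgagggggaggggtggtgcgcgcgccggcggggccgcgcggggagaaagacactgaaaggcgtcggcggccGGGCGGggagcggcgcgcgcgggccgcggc
The SOX4 promoter held 4 CCAAT matches and no GC box, with a GC content of 49.3%. The SOX12 promoter held 1 CCAAT match and 4 GC boxes, with a GC content of 80.3%. At least 1 CCAAT match was found in 35.7% and at least 1 GC box in 44.6% of 27305 promoters of the same length, so holding 1 of either is not uncommon. The share of promoters with 4 or more was not computed. Neither promoter held the SOX motif AACAAT or its reverse complement, which 10.3% of all promoters held. A match is a string of letters and not a shown site. SOX9, SOX8, SOX10 and SOX11 had no entry in the promoter table.

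SOX9 was the only SOXE gene with more than a few reads, and it was nearly lost from the lines with few reads of its relatives in its place. SOX9 (ENSG00000125398, chromosome 17 from 72121020 to 72126416, GRCh38) had 1391, 678, 1892 and 565 reads in control replicates 1 to 4, a mean of 44.3 CPM with an SD of 22. Over the 20 libraries of the lines 12 reads were found, and 12 of these libraries held none. Every control library lay above every line library. The 4 libraries of Δ133p53α8 held 0 reads, which places SOX9 at least 1400-fold below control, taking 3 counts over the line as the floor. Δ133p53α2 held 1 read in all (pooled ratio 4080, 95% counting interval 731 to 161000), Δ133p53α1 2 reads (1820, 503 to 15000) and Δ133p53β5 3 reads (1310, 449 to 6360). Δ133p53β10 held 6 reads, 5 of them in replicate 4, for a ratio of 664 (305 to 1810). These intervals cover counting error only. In bulk RNA, fewer cells with a transcript and less transcript per cell cannot be told apart.

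SOX8 and SOX10, the genes nearest to SOX9 in the family, were not detected in place of it at this depth. SOX8 (chromosome 16 from 981770 to 986979) had 4 reads in all, which fell in 3 of the control libraries at 1, 1 and 2 reads, and the 20 line libraries held none. SOX10 (chromosome 22 from 37970686 to 37987422), a factor of neural crest and glial cells, had 11 reads in 9 libraries, 4 of them in control and 7 in the lines, with at most 1 in a line library. SOX10 shares 5.39% of its exon bases with POLR2F on the other strand, and the strand setting of the counting is not given in the sources used here. Both were too low to be tested. Together with SOX11, a SOXC gene of developing neurons with 0 reads in 24 libraries (an upper limit of 0.00558 CPM over all of them), they are the 3 genes that did not pass the filter on low counts.

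**Figure D1:**
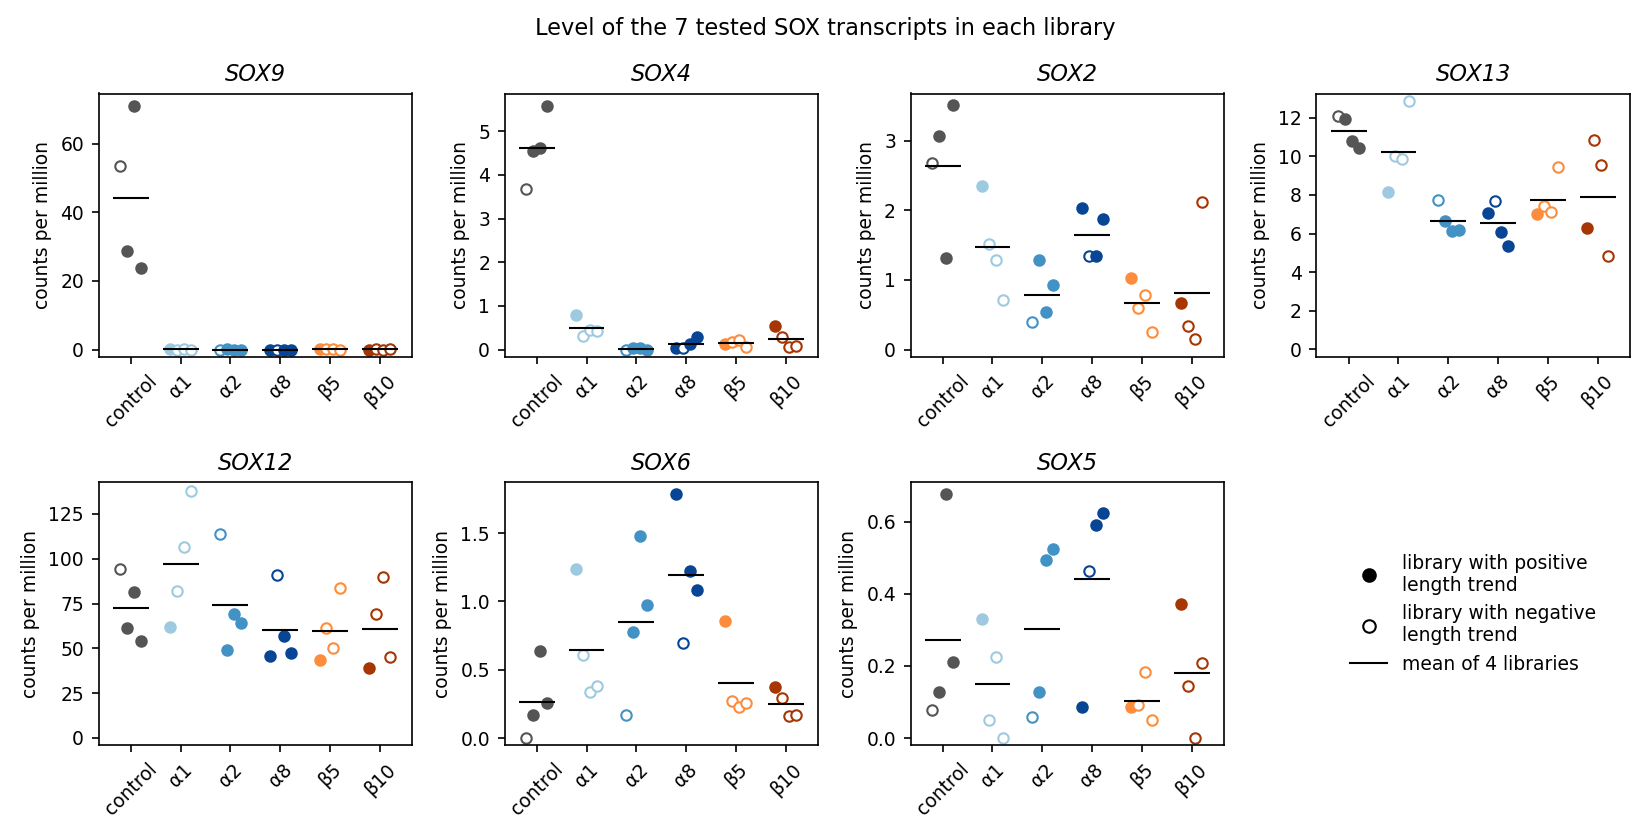
Each panel plots CPM (TMM-scaled, linear axis) of 1 of the 7 SOX genes past the filter on low counts in 24 libraries, with 4 points per group, filled for libraries of the positive length trend, and a line at the group mean. SOX9 and SOX4 sit apart from control in every line, SOX6 is highest in Δ133p53α8 at a mean of 1.2 CPM, and SOX12 overlaps control in all 5 lines.

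SOX9 and 6 relatives passed the filter on low counts. The 6 were tested with edgeR against control, each line sharing the same 4 control libraries, and SOX9 is left out of the counts that follow because it was chosen on this contrast. Calls required a log2 change of 1.5 or more, up or down, with an adjusted p below 0.05. SOX4 was called lower in all 5 lines, SOX2 was called lower in Δ133p53β5, and 0 of the 6 were called higher in any line. SOX4 passed the filter through its control libraries, where it was high, and would not have passed on the line libraries alone. Its p-values are read with that limit. That made 1 of 6 called in Δ133p53α1, Δ133p53α2, Δ133p53α8 and Δ133p53β10 and 2 of 6 in Δ133p53β5. Of all 17990 tested genes, 2.46%, 2.63%, 2.37%, 4.6% and 4.32% were called in these lines in that order. At an adjusted p under 0.05 alone, 4.75%, 5.12%, 4.37%, 9.91% and 9.52% of all tested genes passed, against 1, 2, 2, 1 and 2 of the 6, all lower. SOX13 was the added gene in Δ133p53α2 and Δ133p53α8. In the mean of the 5 lines, SOX4 was called, where 3.32% of all genes were, and by adjusted p alone SOX4, SOX2 and SOX13 passed, all lower, where 11.3% of all genes did. The median log2 fold change of the 6 in that mean was -0.46, against -0.01 for all tested genes.

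SOX4 fell in every line. SOX4 (ENSG00000124766, chromosome 6 from 21593751 to 21598619, a gene of 1 exon) is a SOXC factor known for its part in progenitor survival and in epithelial to mesenchymal transition. It had 96, 107, 123 and 132 reads in the control libraries. Δ133p53α1 kept 19, 6, 8 and 8 reads. Δ133p53α2 kept 0, 1, 1 and 0 reads. None of the 20 line libraries reached the lowest control library. Δ133p53α8 held 1, 1, 3 and 7 reads, Δ133p53β5 3, 4, 5 and 1, and Δ133p53β10 13, 6, 1 and 2. The log2 fold change was -3.20 ± 0.52 (SE) in Δ133p53α1 (adjusted p = 0.000496) and -7.38 ± 0.73 in Δ133p53α2 (adjusted p = 7.74e-07), which rests on 2 reads. It was -5.11, -4.90 and -4.20 in Δ133p53α8, Δ133p53β5 and Δ133p53β10, with adjusted p-values of 7.53e-06, 7.97e-06 and 2.82e-05. In pooled reads, SOX4 was 8.97-fold below control in Δ133p53α1 (95% counting interval 6.51 to 12.7) and 206-fold in Δ133p53α2 (56.8 to 1710).

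SOX4 was the only one of the 6 that differed among the 5 lines, where 3.76% of all tested genes did (F test of the same fit, adjusted p = 0.0166). This test compares line libraries, on which alone SOX4 would not have passed the filter on low counts, so this call carries the same limit. Δ133p53α1 kept most of it and Δ133p53α2 least. The call was lost without Δ133p53α1 replicate 1 (adjusted p = 0.0545), the library of that line with the most SOX4 reads, in the positive set alone (adjusted p = 0.12) and with the replicate number as a block (adjusted p = 0.0549). The decrease was present within each set of libraries, at -4.42 on the log2 scale in the positive set and -3.98 in the negative set. The negative value rests on 1 control library. In the positive set alone, Δ133p53α1 is a single library and its value of -2.64 had an adjusted p of 0.106. A noncoding RNA on the other strand (ENSG00000283480) shares 3.45% of the exon bases of SOX4.

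**Figure D2:**
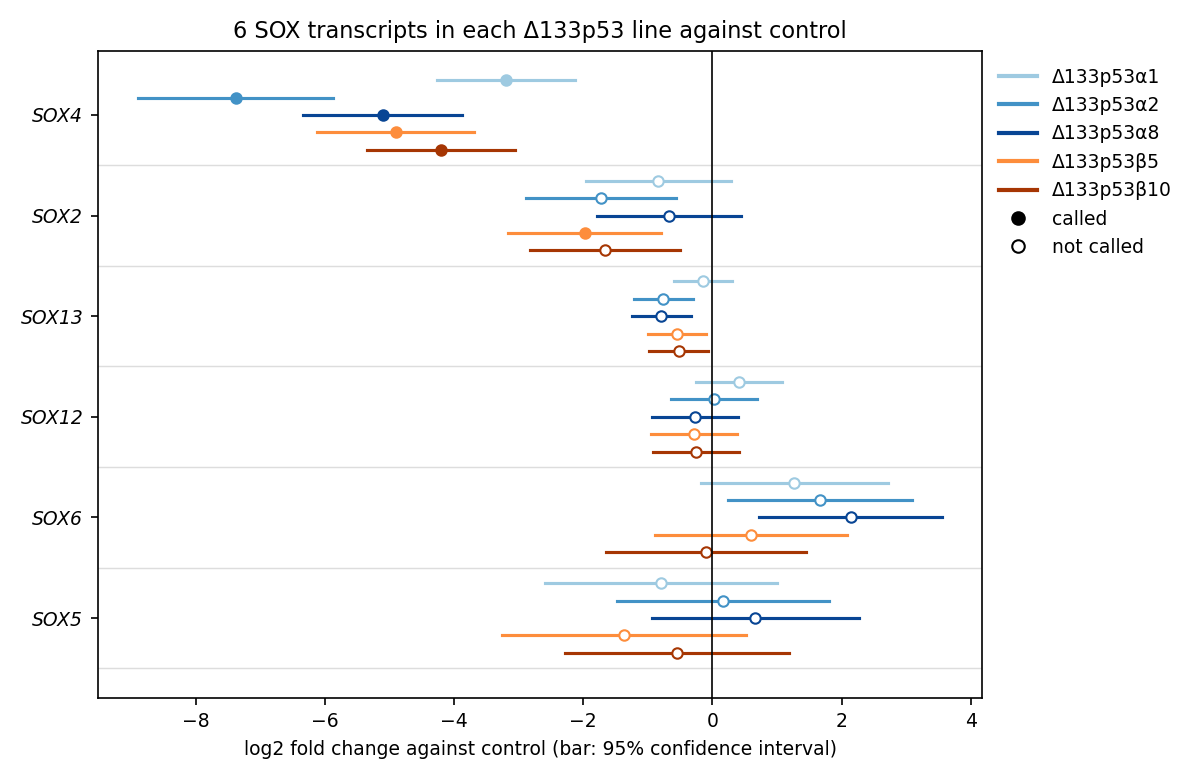
Log2 fold change against control on the x axis for the 6 tested SOX genes other than SOX9, with 1 point per line, a bar for the 95% confidence interval and filled points where the gene was called. The 5 intervals of SOX4 lie below 0 and below those of SOX12, SOX6 and SOX13, while SOX2 is called in Δ133p53β5 and SOX6 in none.

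SOX2 fell in Δ133p53β5, and both SOX2 and SOX13 fell in the mean of the 5 lines. SOX2 (ENSG00000181449, chromosome 3 from 181711925 to 181714436) maintains stem cells and the basal cells of the airway. Control libraries had 70, 72, 35 and 83 reads. Δ133p53β5 had 24, 13, 17 and 5, below all of them. Its log2 fold change there was -1.98 ± 0.57 (adjusted p = 0.029). That call was lost when the library of unclear clone was left out (-1.73, adjusted p = 0.0922) or counted in Δ133p53β10 (-1.72, adjusted p = 0.0985). It was also lost without replicate 2 or 3 of that line (adjusted p = 0.0845 and 0.0694) and without control replicate 2 or 4 (0.0657 and 0.0722). Δ133p53α2, with 7, 30, 13 and 23 reads, stood at -1.73 (adjusted p = 0.0835). Δ133p53β10 had 16, 7, 3 and 51 reads and stood at -1.66 (adjusted p = 0.061), with replicate 4 inside the control range. DESeq2, the test used in the study, placed SOX2 past both thresholds in these lines as well, at -1.74 in Δ133p53α2 (adjusted p = 0.0303) and -1.66 in Δ133p53β10 (adjusted p = 0.0254), and voom in Δ133p53β10 (-2.10, adjusted p = 0.0166) but not in Δ133p53α2 (adjusted p = 0.057). With the library set as a term SOX2 passed in Δ133p53α2 (-1.77, adjusted p = 0.0237) and not in Δ133p53β10 (-1.41, adjusted p = 0.0824). Without Δ133p53β10 replicate 4 that line stood at -2.73 (adjusted p = 0.00306), and Δ133p53α2 passed as well (-1.72, adjusted p = 0.0283). Δ133p53α1 (57, 30, 23 and 13 reads) and Δ133p53α8 (48, 29, 32 and 45 reads) overlapped control, at -0.84 and -0.67. In the mean of the 5 lines SOX2 was 2.59-fold lower (log2 fold change -1.38 ± 0.38, adjusted p = 0.021), a result that was lost without control replicate 2 (-1.29, adjusted p = 0.0788) or 4 (-1.21, adjusted p = 0.0996). Against control, the lines stood at -0.95 within the positive set of libraries and at -1.84 within the negative set, which holds 1 control library. SOX2-OT, the long noncoding RNA that spans the gene, had 48 reads in 24 libraries and was too low to test.

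SOX13 (ENSG00000143842, chromosome 1 from 204073115 to 204127743), a SOXD factor that modulates Wnt signaling through TCF proteins, had 315, 280, 287 and 247 reads in control. The lines ran from 117 to 236 reads. In CPM, 18 of the 20 line libraries lay below the lowest control library and 1, in Δ133p53α1, lay above the highest. The log2 fold change in the mean of the 5 lines was -0.55 ± 0.16 (adjusted p = 0.0284), or 1.47-fold lower. Δ133p53α2 stood at -0.76 (adjusted p = 0.0447) and Δ133p53α8 at -0.79 (adjusted p = 0.0415). The result in the mean was lost without any 1 of the control libraries (adjusted p of 0.0529 to 0.0953). In these 2 lines it was lost in 13 and 11 of the 24 cases that leave out a library, each control library among them, with adjusted p-values up to 0.121 and 0.161. With no filter on low counts the mean (adjusted p = 0.0901), Δ133p53α2 (0.154) and Δ133p53α8 (0.147) did not pass, and these 2 lines also did not pass in pairwise fits (0.158 and 0.0709) or with the replicate block (0.0755 and 0.0685). Δ133p53α8 did not pass with length and GC trends removed (0.0599). The lines stood at -0.76 against control within the positive set and at -0.49 within the negative set, which holds 1 control library. Δ133p53β5 (-0.55) and Δ133p53β10 (-0.52) did not pass, with adjusted p-values of 0.126 and 0.127. With the library set as a term both passed by adjusted p, at -0.70 (adjusted p = 0.021) and -0.68 (adjusted p = 0.0276).

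SOX12 was the most abundant SOX transcript in control and in each line, and it was not called in any line. SOX12 (ENSG00000177732, chromosome 20 from 325552 to 330224, 1 exon), the third SOXC gene, is broadly expressed and its protein is the weakest activator of that subgroup. It had 2450, 1446, 2167 and 1279 reads in control, or 72.8 ± 18.3 CPM (SD, n = 4). The lines ran from 946 to 2533 reads, with a median of 62.9 CPM over the 20 libraries. Each line overlapped control, with 3 line libraries above the highest control library in CPM and 7 below the lowest. The log2 fold change in the mean of the 5 lines was -0.07 ± 0.25 (95% confidence interval -0.59 to 0.44, adjusted p = 0.871). The interval leaves room for a level between 0.666 and 1.36 times that of control. The highest line, Δ133p53α1, stood at 0.42 (-0.25 to 1.08). SOX12 was lower in the positive set of libraries by 0.55 on the log2 scale. The lines differed from control by -0.31 in the positive and -0.23 in the negative set, which holds 1 control library. With the set fitted as a term, SOX12 stood at -0.66 in both Δ133p53β lines, with adjusted p-values of 0.0387 in Δ133p53β5 and 0.0456 in Δ133p53β10.

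SOX6 was the only one of the 6 with a mean log2 fold change above 0 over the 5 lines. Whether it passed depended on the test used, on which libraries were kept and on how the 2 sets of libraries were treated. SOX6 (ENSG00000110693, chromosome 11 from 15966449 to 16739591) is a SOXD protein without an activation domain that works beside SOX9 and SOX5 in cartilage. It had 0, 4, 17 and 6 reads in control, or 0.266 ± 0.27 CPM. SOX6 passed the filter on low counts through line libraries, where it was high, and would not have passed on the control libraries alone. All p-values of SOX6 against control are read with that limit. Δ133p53α8 had 42, 15, 29 and 26 reads, Δ133p53α2 3, 18, 36 and 24, and Δ133p53α1 30, 12, 6 and 7. In CPM, all 4 libraries of Δ133p53α8 lay above the highest control library, with a smallest value of 0.696 against 0.639. Over all lines, 9 of the 20 libraries did. Δ133p53β5, with 20, 6, 5 and 5 reads, and Δ133p53β10, with 9, 6, 3 and 4, overlapped control. The log2 fold change was 2.14 ± 0.68 in Δ133p53α8 (95% confidence interval 0.72 to 3.56, adjusted p = 0.0849), 1.66 in Δ133p53α2 (adjusted p = 0.214) and 1.27 in Δ133p53α1 (adjusted p = 0.239). Δ133p53β5 stood at 0.59 and Δ133p53β10 at -0.10, and the mean of the 5 lines at 1.11 ± 0.58 (adjusted p = 0.226).

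SOX6 has the longest exons of the 10 genes, at 20093 bases, and it was 1.08 higher on the log2 scale in the positive than in the negative set. With the set as a term in the fit, SOX6 passed both thresholds in Δ133p53α1 (2.07, adjusted p = 0.0103), Δ133p53α2 (1.66, adjusted p = 0.0162) and Δ133p53α8 (2.26, adjusted p = 0.0014), and in the mean of the 5 lines (1.62, adjusted p = 0.00523). Δ133p53β5 (1.36, adjusted p = 0.0725) and Δ133p53β10 (0.76, adjusted p = 0.41) did not pass. With the trends along length and GC content removed, the mean stood at 1.35 (adjusted p = 0.0376), below the fold threshold. In that fit SOX6 passed both thresholds in Δ133p53α1 (1.715, adjusted p = 0.0461), Δ133p53α2 (1.69, adjusted p = 0.0488) and Δ133p53α8 (2.14, adjusted p = 0.0134). There Δ133p53β5 (0.93, adjusted p = 0.257) and Δ133p53β10 (0.29, adjusted p = 0.744) did not pass. DESeq2 gave 2.15 (adjusted p = 0.0286) and limma voom 2.86 (adjusted p = 0.0285) for Δ133p53α8. Within the positive set, the 3 control libraries held 0.17 to 0.639 CPM and the 9 line libraries 0.373 to 1.78, with a median of 1.08. Within the negative set, the 1 control library held 0 reads and the 11 line libraries 0.158 to 0.696 CPM. Without control replicate 3, the control library with the most SOX6, Δ133p53α8 stood at 3.06 (adjusted p = 0.0279). Even in Δ133p53α8, SOX6 reached 1.2 ± 0.451 CPM (SD, n = 4), or 0.0596 CPM per kb of exon, where SOX9 stood at 11.3 CPM per kb in control. The length joins all annotated exons of a gene, in 38 blocks for SOX6 and 3 blocks over 3931 bases for SOX9. The value per kb can therefore understate SOX6 more than SOX9.

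**Figure D3:**
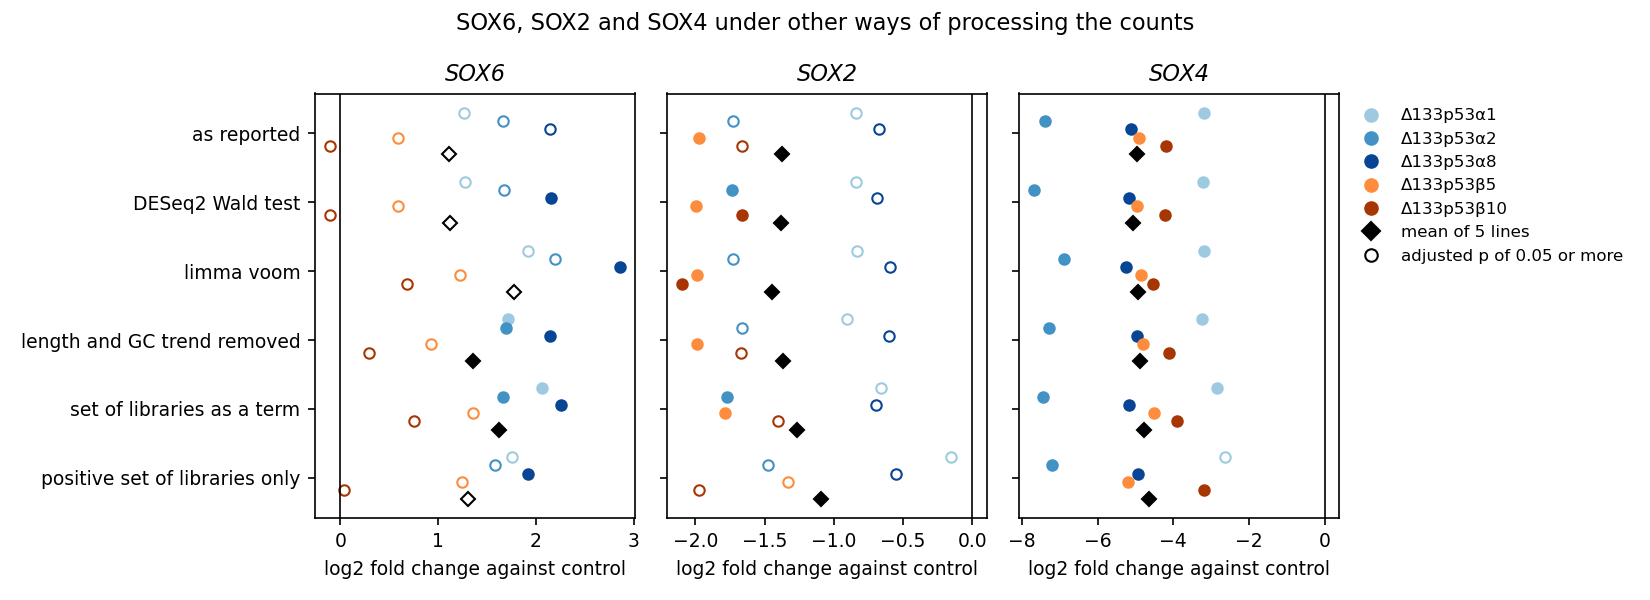
Log2 fold change against control on the x axis for SOX6, SOX2 and SOX4, with a row for the reported fit and for each of 5 other ways of processing the counts, circles for the lines and diamonds for the mean of the 5 lines, filled at an adjusted p under 0.05. SOX6 has no filled point as reported and 4 with the library set as a term, while the SOX4 points remain below -2 in all 6 rows.

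SOX5 (ENSG00000134532, chromosome 12 from 23529504 to 24562544), the SOXD partner of SOX6, was too low for a firm statement. It had 2, 3, 18 and 5 reads in control and 0 to 15 in a line library, and each line overlapped control. Its log2 fold change in the mean of the 5 lines was -0.37 ± 0.62 (95% confidence interval -1.65 to 0.90, adjusted p = 0.727), and the lines ranged from -1.37 in Δ133p53β5 to 0.67 in Δ133p53α8.

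Between the isoforms, none of the 6 was called, where 1.32% of all tested genes were called and 5.43% passed by adjusted p alone. At an unadjusted p under 0.05, edgeR gave 1 gene, SOX6. For SOX6, the mean of the 2 Δ133p53β lines minus that of the 3 Δ133p53α lines was -1.45 ± 0.46 on the log2 scale (adjusted p = 0.0688), and DESeq2 placed it past the adjusted threshold (-1.46, adjusted p = 0.0198), as did the fit with length and GC trends removed (-1.24, adjusted p = 0.0291). It also passed without Δ133p53α2 replicate 1 (-1.56, adjusted p = 0.0295), Δ133p53β5 replicate 1 (-1.78, adjusted p = 0.0318) or control replicate 1 or 3 (adjusted p = 0.0318 and 0.0455). Voom placed 0 of the 6 past it. SOX4 (0.68, adjusted p = 0.455), SOX2 (-0.74, adjusted p = 0.304, or -1.27 and 0.0291 without Δ133p53β10 replicate 4), SOX12 (-0.33, adjusted p = 0.443), SOX5 (-0.97, adjusted p = 0.411) and SOX13 (0.03, adjusted p = 0.925) did not pass. SOX12 was lower in the Δ133p53β lines by adjusted p with the library set as a term (-0.56, adjusted p = 0.0111) and with length and GC trends removed (-0.31, adjusted p = 0.028). The isoforms are represented by 3 and 2 clones.

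Per length, the 19 SOX genes examined (the 10 and SOX1, SOX3, SOX7, SOX14, SOX15, SOX17, SOX18, SOX21 and SOX30) summed to 32.6 ± 8.85 CPM per kb of exon (SD, n = 4) in control, of which SOX9 made up 33.1% and SOX12 48.1%. Without SOX9 the control sum was 21.3 ± 3.77. The sum without SOX9 was 26.1 ± 7.73 in Δ133p53α1, 18.8 ± 6.37 in Δ133p53α2 and 16.2 ± 4.81 in Δ133p53α8. For the Δ133p53β lines it was 16.5 ± 4.47 in clone 5 and 17.2 ± 6.3 in clone 10. The line means lay below the control mean in all but Δ133p53α1, and all 5 lines overlapped the control range of 17.5 to 25.9. SOX12 made up 75.4% to 83.5% of the sum in the lines. This sum weighs transcripts and not the activity of the proteins, and it was not tested.

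**Figure D4:**
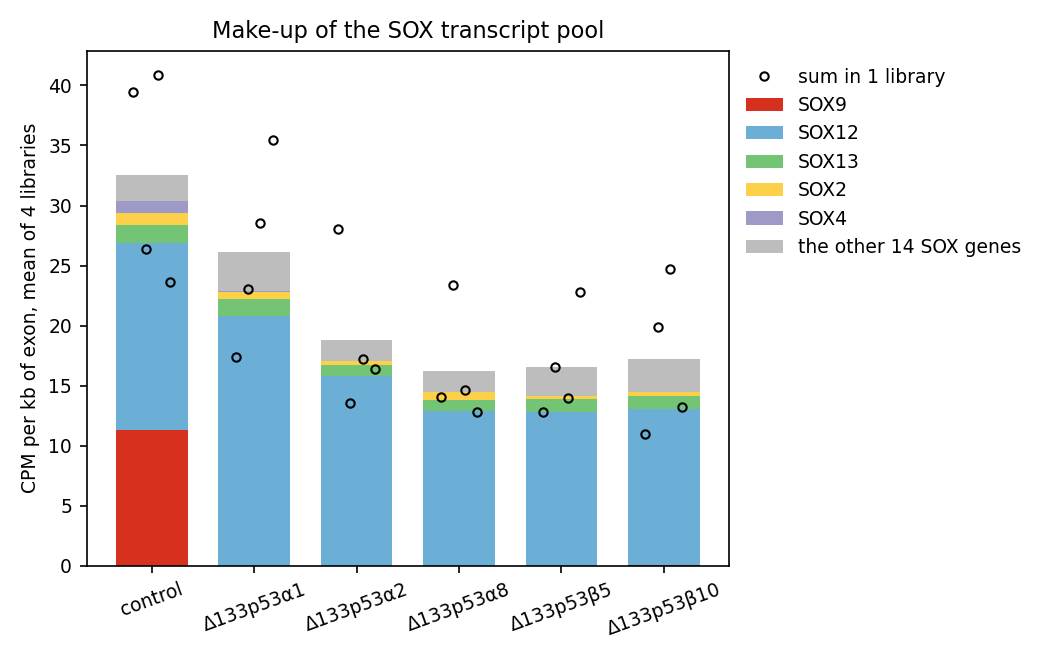
Stacked bars give the mean CPM per kb of exon of the SOX genes in each group (linear axis from 0), with open points for the sum in each library. The SOX9 share of 33.1% is seen in control alone, and SOX12 makes up 75.4% to 83.5% of the bars of the lines.

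Of the 9 SOX genes outside the 10, SOX7, SOX15 and SOX18 could be tested. In any line 0 of the 3 were called, where 2.37% to 4.6% of all tested genes were. SOX15, a factor of myogenic precursors, stood at 1.07 CPM in control and at 1.3 to 2.1 CPM in the lines. Its mean log2 fold change was 0.67 ± 0.34 (adjusted p = 0.212). The lines ranged from 0.28 in Δ133p53α8 to 0.97 in Δ133p53β10 (95% confidence interval 0.10 to 1.83, adjusted p = 0.136). Δ133p53β5 stood at 0.80 (adjusted p = 0.245), with its libraries at 1.47 to 2.67 CPM against at most 1.23 in control. The other lines overlapped control. SOX18, a SOXF factor of vascular endothelium, was at 2.32 CPM in control, 0.968 in Δ133p53α2 (log2 fold change -1.27, adjusted p = 0.188) and 3.25 in Δ133p53α1 (0.48, adjusted p = 0.499). SOX7, also SOXF, was higher in the Δ133p53β than the Δ133p53α lines by 1.15 on the log2 scale (adjusted p = 0.0275), and it shares 39.4% of its exon bases with PINX1 on the same strand, so the reads of the pair may not be told apart. SOX1, SOX3 and SOX14 had 0 reads in 24 libraries, and SOX17, SOX21 and SOX30 had 8, 69 and 19 reads in all.

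Among the other genes near SOX9, LINC00511 was called lower in all 5 lines, while ATG12P1 was higher and SLC39A11 lower in the mean of the lines by adjusted p. Within 1 Mb of the SOX9 start the table lists 21 genes, SOX9 included, of which 8 had no read and 4 could be tested. Of all tested genes, 2.37% to 4.6% were called in a line. SOX9-AS1, transcribed from the other strand across the gene, had 24, 2, 27 and 2 reads in control and 2 reads in the 20 line libraries, 1 each in Δ133p53β5 and Δ133p53β10. Its control values moved with those of SOX9, as replicates 1 and 3 were the highest for both. LINC01152, 90.7 kb upstream, had 35 reads in control and 1 in the lines. ROCR, a noncoding RNA 62.9 kb upstream, had 7 reads in control and 0 in the lines, and LINC02097, 48.7 kb upstream, had 9 and 0. MYL6P5, a pseudogene 500 kb upstream, had 1 read over the 4 control libraries and 21 over the 20 line libraries, with at most 3 in a library. These were too low to test.

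LINC00511, a noncoding RNA that starts 519.5 kb downstream, was called lower in all 5 lines, from 76 to 280 reads in a control library to at most 33 in a line library. Its log2 fold change in the mean of the lines was -5.04 ± 0.41 (adjusted p = 1.03e-08). It was least reduced in Δ133p53β10 (-2.69, adjusted p = 0.00651) and most in Δ133p53α2 (-7.27, adjusted p = 1.1e-05). SLC39A11, a zinc transporter gene that starts 971.7 kb downstream, was called in 0 lines, and it was lower by adjusted p in Δ133p53α2 (-1.19, adjusted p = 0.000855), Δ133p53α8 (-1.07, adjusted p = 0.00273) and the mean of the lines (-0.57 ± 0.15, adjusted p = 0.0168). It stood at 0.10 in Δ133p53β10 and differed among the lines (F test, adjusted p = 0.0011). The pseudogene ATG12P1, 947.3 kb downstream, was called higher in 1 line, Δ133p53β10, at 1.67 (adjusted p = 0.0011), and in the mean it stood at 0.86 (adjusted p = 0.029). Reads of its parent gene could be counted on it.

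**Figure D5:**
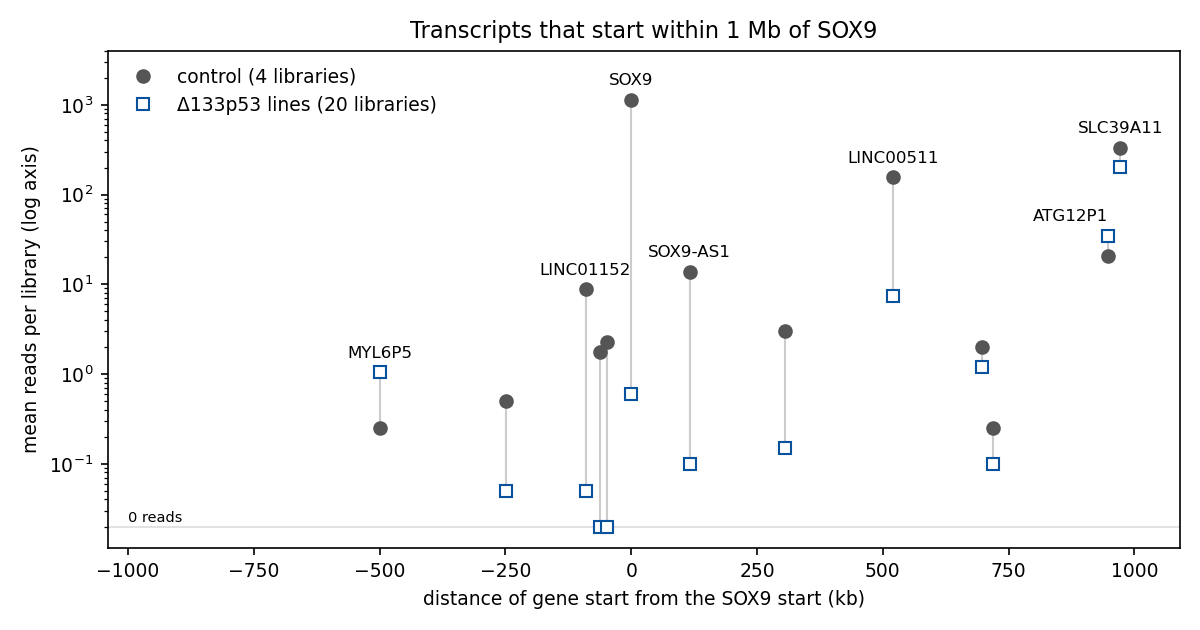
Mean reads per library (log axis, 0 drawn at the lowest line) against the distance of each gene start from that of SOX9 in kb, for genes with at least 1 read, with filled circles for the 4 control libraries and open squares for the 20 line libraries. SOX9, SOX9-AS1, LINC01152 and LINC00511 are far lower in the lines, while SLC39A11, at 971.7 kb, held 253 to 457 reads in a control library and at most 357 in a line library.

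By Pearson's r with SOX9 in log2 CPM over the 24 libraries, the most similar of 17989 tested genes were NDRG1 (0.996), ENSG00000232111 (0.989), NETO1 (0.988), RIPK4 (0.988) and ADPRH (0.986). NDRG1 is a gene of the hypoxia and stress response, NETO1 encodes an auxiliary subunit of glutamate receptors, RIPK4 a kinase of keratinocyte differentiation and ADPRH a hydrolase that removes ADP-ribose from arginine. Each had at most 3 reads in a line library, while their lowest control libraries held 17 to 156. With every library either control or line, these values mainly state that the genes share the gap between control and lines. Among the SOX genes, SOX4 ranked 41 (0.876), SOX2 915 (0.528), SOX13 942 (0.525), SOX5 7647 (0.0861), SOX12 8095 (0.0621) and SOX6 16322 (-0.44).

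Of 24 genes known as SOX9 targets in cartilage and other tissues, 11 could be tested, and COMP, a cartilage matrix protein, was the only one called, where 2.63%, 4.32% and 4.6% of all tested genes were in the 3 lines concerned. It had 11 to 36 reads in control and at most 11 in a line library, and it was lower in Δ133p53α2 (-3.15, adjusted p = 0.00467), Δ133p53β5 (-2.17, adjusted p = 0.0241) and Δ133p53β10 (-2.44, adjusted p = 0.0141). Like SOX4, COMP passed the filter on low counts through its control libraries, where it was high. COMP stood at -1.52 (adjusted p = 0.122) in Δ133p53α1 and at -2.03 (adjusted p = 0.054) in Δ133p53α8. In the mean of the lines, 2 of the 11 were lower by adjusted p alone, COMP and MATN1 (-0.93, adjusted p = 0.0413), and 1 was higher, WWP2 (0.43, adjusted p = 0.0255), where 11.3% of all tested genes passed. The median log2 fold change of the 11 in that mean was -0.18, against -0.01 for all tested genes.

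Of 34 genes whose products act with SOX9 or regulate it, 30 could be tested. For this list and the markers below, 2.37% to 4.6% of all tested genes were called in a line. NOTCH3, a Notch receptor, was called lower in all 5 lines, from 119 to 696 reads in a control library to 13 to 70 in a line library, with a mean log2 fold change of -3.00 ± 0.29 (adjusted p = 1.34e-07). BARX2, a homeobox factor of cartilage and muscle, was called lower in 4 lines and was the reverse in value in Δ133p53α2 (0.65, adjusted p = 0.469), where its libraries held 70 to 130 reads against 48 to 136 in control. TRPS1 was called lower and BMP4 higher (1.54, adjusted p = 0.0032) in Δ133p53α1. In the mean of the lines, 1 of the 30 was called lower and 0 higher, where 3.32% of all tested genes were called, and by adjusted p alone 10 were lower and 2 higher, where 11.3% of all tested genes passed either way. Their median was -0.37. Of the markers of cell state, KRT8 was called higher in all 5 lines (mean log2 fold change 1.87 ± 0.31, adjusted p = 0.000201). KRT18 was called higher in Δ133p53α1 alone (1.89, adjusted p = 0.00681). Of the 4 mesenchymal markers, FN1, a matrix protein, was called lower in Δ133p53β5 (-1.65, adjusted p = 0.0237) and Δ133p53β10 (-1.65, adjusted p = 0.0242), and CDH2, VIM and ZEB1 were called in 0 lines. CDH2 stood at 0.63 and 0.54 in those lines, with adjusted p-values of 0.172 and 0.213. The 12 markers of other cell types summed to 7.26 to 29.4 CPM in a library, with overlapping ranges in all 6 groups, and 0 of the 2 tested were called. Their part in the SOX results was not tested.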

How the data were processed

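The authors enriched mRNA with oligo dT beads, per the labels, and made strand-specific libraries, per the paper's methods. Reads were trimmed (Cutadapt), mapped to GRCh38 (HISAT2) and summarized per gene (featureCounts). The strand and multimapping settings are not given in the sources used here. They deposited unnormalized read counts for 24 libraries. A row with no gene name (0 reads) was left out. The SOX genes and gene lists were chosen with earlier results of these data known.

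Counts were tested in R 4.3.3 with edgeR 4.0.16 (TMM, filterByExpr by group, quasi-likelihood fit of 6 groups, 18 residual degrees of freedom, Benjamini-Hochberg over 17990 genes per comparison). Total counts were 21531599 to 25381731 per library. CPM used TMM-scaled totals, which ran from 17492900 to 26622500, and log2 CPM for correlations a prior count of 2. Levels per kb used the length of all exons of a gene joined, from GENCODE v44 on GRCh38. Counts of 0 were bounded by 3 counts, and pooled ratios carry 95% exact binomial intervals, which cover counting error only since duplicates were not marked. Promoters came from RefSeq (GRCh38.p14). The procedure was tested on simulated data.

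Alternatives were RLE factors, no filter, a mean of at least 1 CPM, DESeq2 1.42.0, limma 3.58.1 (voom), pairwise fits, a fold threshold of 1.5, the replicate number as a block, the unclear library moved or left out, each library left out, length and GC trends removed, and the library set as a term. Using the positive set alone, and leaving out the 3 highest totals, were chosen after seeing the data. No 2 libraries of a line were alike within sampling noise (lowest chi-square per degree of freedom 17.2 over 36 pairs).

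The text names the 10 SOX genes, genes of the other lists called in at least 3 lines, the 5 genes most correlated with SOX9 and genes that start within 1 Mb of it. TRPS1, BMP4, MATN1, WWP2, FN1, CDH2, VIM, ZEB1, KRT18, EPCAM, KRT19, CDH1, SOX7, SOX15, SOX18 and the markers at 0 fall outside that rule and were named after their values were seen.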

Additional observations from a re-analysis of the deposited data

Results flagged for a closer look

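Of 41 groups of 4 libraries, 4 held a library that stood apart from the other 3 by Dixon's test, where chance gives about 1 in 20 groups. Replicate 2 of Δ133p53α2 held the only SOX9 read of its line (0.0429 CPM), and replicate 4 of Δ133p53β5 held 0 CPM of SOX9 where the other libraries held 1 read each. Both are differences of 1 read. Replicate 1 of Δ133p53β5 stood above its line in SOX6 (0.853 CPM against 0.229 to 0.273), and it is the 1 library of that line in the positive set. Replicate 4 of Δ133p53β5, the library of unclear clone, stood above its line in SOX13 (9.45 CPM against 7 to 7.41).

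SOX4 differed among the 5 lines (edgeR F test, adjusted p = 0.0166), from 41 reads in Δ133p53α1 and 22 in Δ133p53β10 down to 2 in Δ133p53α2. It was in the tested set through its control libraries and not through these line reads. The call was lost with the replicate block (adjusted p = 0.0549), in the positive set alone (0.12) and without Δ133p53α1 replicate 1 (0.0545).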

How the results depend on the processing

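The counts of called SOX genes given here leave out SOX9, which was chosen on the contrast with control. SOX4 was called lower in each line under every alternative but 1. In the positive set alone it was not called in Δ133p53α1, which then has a single library that is assumed to vary like the other groups. With the library set as a term, 4 were called in Δ133p53α2 (SOX2, SOX4, SOX6 and SOX9) where 2 were before. In that fit SOX6 was also called higher in Δ133p53α1 and Δ133p53α8. With length and GC trends removed it was called higher in each Δ133p53α line. In Δ133p53α8 it was called higher with DESeq2, with voom and in the positive set. Added calls of SOX2 include those given with that gene. In Δ133p53β10 it was also called with the unclear library counted there (-1.86, adjusted p = 0.0224) and without Δ133p53α2 replicate 1 (-1.68, adjusted p = 0.0481). Without the 3 highest totals it was called in Δ133p53β10 (-2.40, adjusted p = 0.0412), Δ133p53α2 (-1.74, adjusted p = 0.0397) and the mean of the lines (-1.53, adjusted p = 0.00789). In Δ133p53α2 it was called without Δ133p53β10 replicate 3 (-1.74, adjusted p = 0.0467). SOX4 no longer differed among the lines under the replicate block (0 called, adjusted p = 0.0549) or in the positive set (0 called, adjusted p = 0.12), and leaving out single libraries gave 0 to 1, the 0 without Δ133p53α1 replicate 1. Between the isoforms, leaving out single libraries gave 0 to 1, with SOX6 called without Δ133p53α2 replicate 1 or Δ133p53β5 replicate 1. Deviations from the line means were no more alike between libraries of the same replicate number (median r of -0.0233, 22 of 60 pairs over 0.1) than between others (78 of 180 pairs). These deviations still held the trends of the 2 sets, with r from -0.886 to 0.893 in same-number pairs. They cannot show whether a smaller effect is shared by replicate number. The block ended the SOX2 call in Δ133p53β5 (adjusted p = 0.0533). The causes were not tested.

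Reversals concerned only values that were not called. SOX6 in Δ133p53β10 turned to 0.68 with voom, 0.29 with length and GC trends removed, 0.76 with the set as a term and 0.037 in the positive set, and ranged from -0.52 to 0.82 when single libraries were left out, as did SOX6 in Δ133p53β5 (-0.076 to 1.52). SOX12 in Δ133p53α2 became -0.027 at a mean of at least 1 CPM, -0.018 with voom and with the set as a term, -0.004 without the unclear library and -0.087 in the positive set (-0.26 to 0.18 with single libraries left out). SOX12 became -0.091 in Δ133p53α1 in the positive set, 0.023 in Δ133p53α8 with the trends removed, and 0.011 in the mean of the lines without the 3 highest totals (-0.19 to 0.075 with single libraries left out). SOX13 between the isoforms became -0.023 without the unclear library, -0.065 with the set as a term and -0.048 in the positive set (-0.063 to 0.12). SOX5 became -0.16 in Δ133p53α2 without the 3 highest totals and 0.096 in Δ133p53β10 in the positive set. With single libraries left out, SOX5 ranged from -1.56 to 0.18 in Δ133p53α1, -0.22 to 1.14 in Δ133p53α2, -1.13 to 0.43 in Δ133p53β10 and -0.68 to 0.60 in the mean. SOX9 between the isoforms, at 12 reads in all, became -0.075 in the positive set. SOX5, SOX6 and SOX9 in the lines are limited by read number.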
